A study of Mus musculus with 10 samples.

Results

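Integrins are the cell-surface receptors through which blood cells hold on to matrix and to other cells. The transcripts of 10 integrin subunits were followed across 4 cultured mouse blood cell populations: *Itgal*, *Itgam*, *Itgax* and *Itgb2* (the β2, or leukocyte, integrins), *Itga4*, *Itgae* and *Itgb7* (the α4 and β7 integrins), *Itga2b* and *Itgb3* (the megakaryocyte and platelet pair) and *Itga6* (a laminin receptor chain). They were taken by name as subunits of blood cell integrins, with earlier results of these data known, and are 10 of the 24062 genes listed. All 10 reached 1 CPM (the unit of counts scaled to a common library total) or more in 2 libraries or more, and so were among the 12221 genes tested.

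LSK cells (lineage-negative, SCA-1+ c-KIT+ marrow progenitors) of C57BL/6J mice were cultured in flasks coated with the Notch ligand Delta1, at the higher of the ligand densities used, or with human IgG as the control without a Notch ligand. From the Delta1 cultures, 3 early T-lineage stages were sorted, with 2 libraries each: DN1, DN2a and DN2b (double negative, for cells lacking CD4 and CD8), told apart by CD44, c-KIT and CD25. The 4 IgG libraries are labelled wild type (WT) and day 14. Total RNA was sequenced with a stranded kit, and reads were counted per gene. Every flask was also coated with Retronectin, a fragment of fibronectin that α4β1 integrin binds, and every culture received SCF, FLT-3 ligand, IL-6 and IL-11. IL-7 was given to the cultures that yielded DN2a and DN2b and not to those that yielded DN1. It was added at day 14 of culture, and no culture day is given for the DN libraries, so time in culture may differ too. DN stage, IL-7 and time in culture therefore cannot be told apart in the comparisons of DN2a or DN2b with DN1. Between a DN stage and IgG, the same holds for ligand, DN sorting, time in culture and, for DN2a and DN2b, IL-7. The DN gates define the DN samples only. All of these are bulk samples of cultured cells, in which fewer cells of a type and less RNA per cell cannot be told apart.

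An integrin is a pair of 1 α and 1 β chain, and the pairing decides what it binds. The β2 chain pairs with αL (LFA-1, the lymphocyte receptor for ICAMs), with αM (Mac-1, or CD11b, of granulocytes, monocytes and macrophages) or with αX (CD11c, of dendritic cells and some macrophages). The α4 chain pairs with β1 to bind VCAM-1 and fibronectin, or with β7 to bind MAdCAM-1 of gut vessels, and αE (CD103) pairs with β7 alone and binds E-cadherin. αIIb (CD41) and β3 form the fibrinogen receptor of platelets, αIIb is also found on early blood progenitors, and α6 pairs with β1 or β4.

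Genes for these chains lie partly side by side. On GRCm38 (mm10), *Itgal* (chr7:127296260-127335138), *Itgam* (chr7:128062640-128118491) and *Itgax* (chr7:128129547-128150657) lie on the same strand of chromosome 7, with *Itgam* and *Itgax* next to each other among the integrin genes. *Itga2b* (chr11:102453297-102470122), *Itgb3* (chr11:104608000-104670476) and *Itgae* (chr11:73090583-73147446) are on chromosome 11, *Itgb7* (chr15:102215995-102231944) on chromosome 15, *Itgb2* (chr10:77530252-77565708) on chromosome 10, and *Itga4* (chr2:79255426-79333123) and *Itga6* (chr2:71745616-71858416) on chromosome 2. Promoter sequences from RefSeq (GRCm38.p6) matched 5 of the 10 members, *Itgam*, *Itgax*, *Itgb7*, *Itga2b* and *Itga4*. The 250 bases before the RefSeq start are printed for the neighbours *Itgam* and *Itgax*, both lower in DN2b than in IgG but of which *Itgam* alone was called lower in DN1 and DN2a, and for *Itgb7* and *Itga2b*, 2 subunits higher in DN1 than in IgG. By GENCODE vM21 the *Itgam* window lies before its gene, the *Itgax* and *Itgb7* windows reach 3 and 9 bases into theirs, and 239 bases of the *Itga2b* window lie inside the gene, 180 of them in an exon of another transcript that starts further upstream. Each is written 5′ to 3′ on the strand of its gene, and capitals mark a match to 1 of the 4 motifs searched.
Itgam (chr7:128062390-128062639, plus strand): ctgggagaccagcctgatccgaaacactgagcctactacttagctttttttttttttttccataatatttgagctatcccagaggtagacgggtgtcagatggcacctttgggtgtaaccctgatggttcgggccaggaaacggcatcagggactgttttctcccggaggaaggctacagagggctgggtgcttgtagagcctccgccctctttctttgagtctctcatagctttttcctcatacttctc
Itgax (chr7:128129300-128129549, plus strand): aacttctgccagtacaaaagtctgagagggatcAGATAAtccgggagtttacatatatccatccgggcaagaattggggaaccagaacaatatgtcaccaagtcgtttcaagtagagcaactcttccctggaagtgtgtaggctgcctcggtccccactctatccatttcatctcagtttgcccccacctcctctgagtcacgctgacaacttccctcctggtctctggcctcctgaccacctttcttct
Itgb7 (chr15:102231936-102232185, minus strand): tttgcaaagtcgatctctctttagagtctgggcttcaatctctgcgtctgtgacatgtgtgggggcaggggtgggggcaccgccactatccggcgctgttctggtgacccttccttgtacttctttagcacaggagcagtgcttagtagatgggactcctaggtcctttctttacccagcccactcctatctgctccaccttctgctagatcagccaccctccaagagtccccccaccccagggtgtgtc
Itga2b (chr11:102469884-102470133, minus strand): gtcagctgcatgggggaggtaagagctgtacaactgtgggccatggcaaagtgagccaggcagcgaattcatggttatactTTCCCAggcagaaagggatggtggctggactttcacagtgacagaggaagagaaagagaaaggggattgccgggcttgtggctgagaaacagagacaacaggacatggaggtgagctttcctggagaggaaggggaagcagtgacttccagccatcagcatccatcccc

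The motifs were searched on both strands, and shares are of the 32851 RefSeq promoter windows of this length. The PU.1 motif (GAGGAAGT) was in 2.44% of all windows and in none of the members' windows. The RUNX motif (TGTGGT) was in 4614 of all windows, among them that of *Itga4*. The GATA motif (AGATAA) was in 9.99% of all windows. The RBPJ motif (TGGGAA) was in 21.6% of all windows. No 2 matches overlapped in the windows of the members. Of the 4 sequences, *Itgax* held 1 GATA match that began 217 bases before the start, *Itga2b* held 1 RBPJ match on the opposite strand that began 169 bases before it, inside the GENCODE gene, and *Itgam* and *Itgb7* held none. A match is a description of these letters, not of a bound site. The ratio of observed to expected CpG was 0.39 for *Itgam*, 0.336 for *Itgax*, 0.258 for *Itgb7*, 0.234 for *Itga4* and 0.119 for *Itga2b*, against a median of 0.374 over all windows, so the *Itga2b* window was at the 17.6th percentile and the *Itgam* window at the 51.4th.

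The libraries held between 12354635 and 35367925 reads on genes, so that 3 counts, taken as the detection floor, equalled 0.0880 to 0.239 CPM after TMM scaling (edgeR's correction of library size). No member was at that floor in any library. The transcripts of the sorting antigens had the order of the gates. *Il2ra* (CD25) was at 18.9 and 23.2 CPM in DN1 and at 1170 to 2175 CPM in DN2a and DN2b, *Cd44* was lowest in DN2b (10.9 and 13.5 CPM), and *Kit* was highest in DN1 (319 and 368 CPM). The 12 T-lineage marker genes summed to 51.2 to 308.5 CPM in IgG, 362 to 509 in DN1, 2702 to 3595 in DN2a and 4940 to 6436 in DN2b. The 16 myeloid marker genes ran the other way, with sums of 27157 to 80388 CPM in IgG and of 16.2 to 48.0 CPM in DN2a and DN2b. DN1 replicate 1 stood apart from DN1 replicate 2 in markers of other cells, with 2647 against 124 CPM for the myeloid list, 2411 against 598 CPM for the mast cell and basophil list and 349 against 158 CPM for the megakaryocyte list. Calls below come from 1 edgeR quasi-likelihood fit of all 10 libraries, with p-values adjusted over the 12221 genes (Benjamini-Hochberg) and called under 0.05, and ± after a log2FC is its standard error.

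Transcripts of αM and β2 were lower and that of αE higher than in IgG in all 3 DN stages, and those of αIIb and β7 were higher in DN1 and DN2a. In DN1 versus IgG, 5 of the 10 members passed (*Itgae*, *Itga2b* and *Itgb7* higher, *Itgam* and *Itgb2* lower), where 31.4% of all genes tested did (14.3% higher, 17% lower). In DN2a versus IgG the same 5 passed in the same directions, where 45.5% of all genes did (21.2% higher, 24.3% lower). In DN2b versus IgG, 2 passed as higher (*Itgae* and *Itgb3*) and 3 as lower (*Itgam*, *Itgb2* and *Itgax*), where 42.5% of all genes did (19.9% higher, 22.5% lower). With backgrounds this high, the count of members that differed from IgG is not in itself a result about integrins. The 3 comparisons share the IgG libraries. The libraries of the 2 groups did not overlap for 6 of 10 members in each comparison with IgG, against 49%, 63.1% and 59% of all genes. The median log2FC of the members was 0.56, 0.03 and 0.03, beside 0.01, -0.05 and -0.05 over all genes. Without TMM scaling the median of all genes moved up by 0.26 in DN1 versus IgG, and the split of calls over all genes was 2585 higher and 1627 lower instead of 1753 and 2081. No called direction of a member in a comparison with IgG turned with it.

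**Figure D1:**
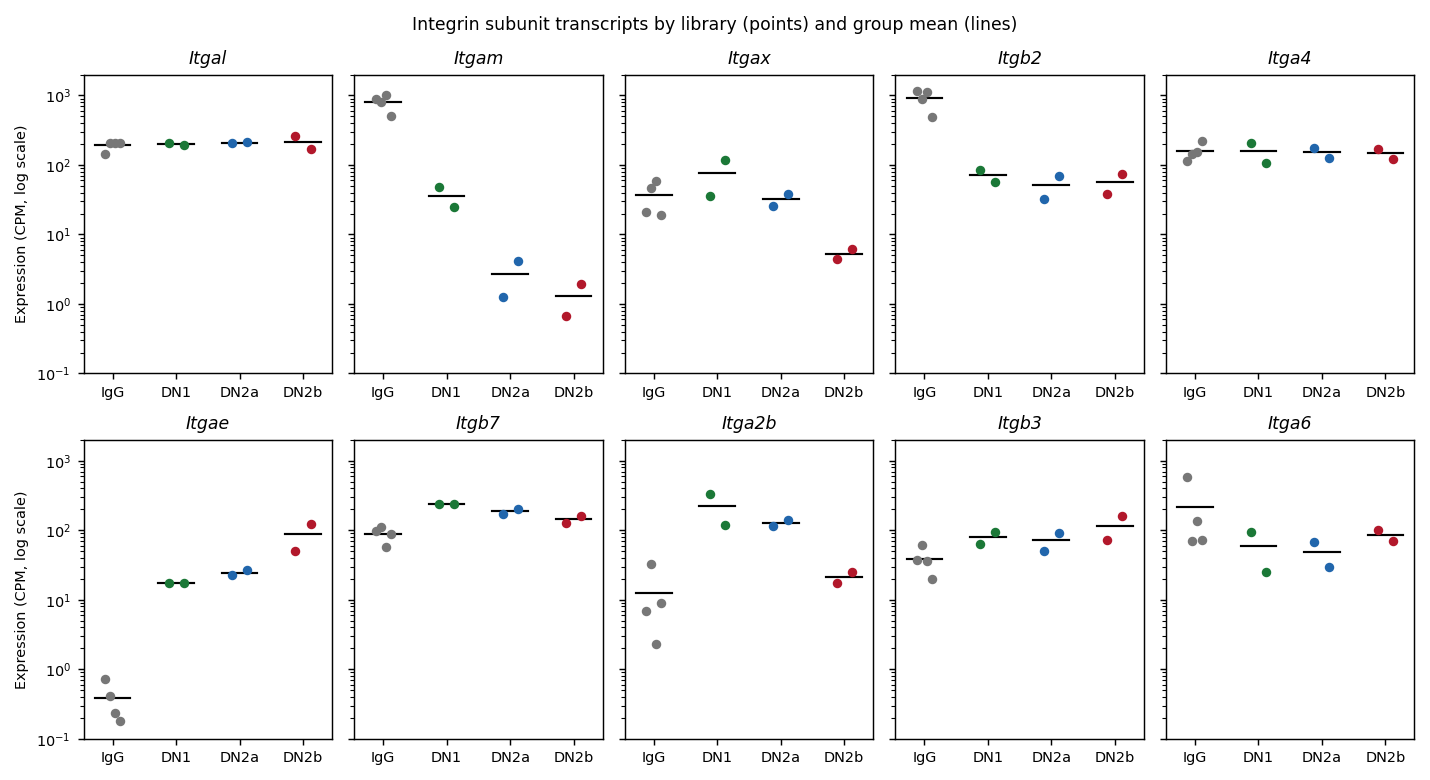
Expression (CPM, log scale) of the 10 integrin subunits in each library, where points are libraries (4 IgG, 2 each for DN1, DN2a and DN2b) and lines are group means. *Itgam* and *Itgb2* in every DN library sit below every IgG library, *Itgae* and *Itgb7* sit above, and *Itgal* and *Itga4* overlap in all 4 groups.

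*Itgam*, the αM chain of Mac-1, showed the widest range of the β2 set. It was at 883.5, 817.0, 1015.5 and 504.2 CPM in the IgG libraries, 47.7 and 24.7 CPM in DN1, 1.25 and 4.16 CPM in DN2a, and 0.667 and 1.91 CPM in DN2b. Each DN library was below every IgG library, both DN2a libraries were below both DN1 libraries, and DN2a and DN2b overlapped. Against IgG, *Itgam* was 22.2-fold lower in DN1 (log2FC -4.47 ± 0.65, adjusted p = 0.00164), 307-fold lower in DN2a (-8.26 ± 0.80, adjusted p = 0.00017) and 632-fold lower in DN2b (-9.30 ± 0.85, adjusted p = 0.000113). All 20 alternatives kept each of these 3 calls. The log2FC moved when a library was left out, from -7.59 without DN2a replicate 1 to -9.32 without DN2a replicate 2, and from -8.71 without DN2b replicate 1 to -10.22 without DN2b replicate 2. In DN1, *Itgam* was higher in replicate 1, the library with the higher myeloid marker sum, and without that library DN1 was lower than IgG by a log2FC of -5.03. The part of the myeloid marker cells in the *Itgam* level of DN1 was not tested.

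*Itgb2*, the β2 chain itself, moved with *Itgam* between IgG and DN but not within DN. It was at 1143.3, 894.5, 1135.4 and 493.9 CPM in IgG, against 85.8 and 57.7 CPM in DN1, 31.9 and 69.8 CPM in DN2a, and 38.5 and 74.5 CPM in DN2b. All 6 DN libraries lay below all 4 IgG libraries and the 3 DN stages overlapped. The fold decrease from IgG was 12.8-fold in DN1 (-3.67 ± 0.55, adjusted p = 0.00175), 18.1-fold in DN2a (-4.17 ± 0.56, adjusted p = 0.000671) and 16.2-fold in DN2b (-4.02 ± 0.56, adjusted p = 0.000784), and all 20 alternatives kept each call. Without DN2a replicate 2 the DN2a value was -4.84. The paralog *Itgb2l*, named after its values were seen, was at 10.1 CPM in DN1 replicate 1 and 0 in DN1 replicate 2. It was between 1.74 and 83.3 CPM in IgG, and reads that fit both genes equally were assigned to neither, in a number the counts do not give.

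*Itgal*, the αL chain of LFA-1, did not pass in any of the 6 comparisons. It was at 144.5, 208.6, 204.3 and 209.1 CPM in IgG, 210.0 and 195.0 CPM in DN1, 204.0 and 212.0 CPM in DN2a, and 257.3 and 168.6 CPM in DN2b. All 4 groups overlapped, and the log2FC against IgG was 0.08 ± 0.24 in DN1 (adjusted p = 0.827), 0.12 ± 0.24 in DN2a (adjusted p = 0.709) and 0.15 ± 0.24 in DN2b (adjusted p = 0.629). The *Itgal* level thus lay between 144.5 and 257.3 CPM in every library, over which *Itgam* ranged from 0.667 to 1015.5 CPM.

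*Itgax*, the αX chain of CD11c, had another pattern, with DN2b set apart from the other 3 groups. It was at 20.7, 47.3, 59.5 and 19.2 CPM in IgG, 35.5 and 116.0 CPM in DN1, 25.7 and 38.4 CPM in DN2a, and 4.40 and 6.21 CPM in DN2b. DN1 and DN2a overlapped IgG, and both DN2b libraries lay below every other library. *Itgax* was 6.92-fold lower in DN2b than in IgG (-2.79 ± 0.67, adjusted p = 0.00976), a call lost without DN2b replicate 1 (-2.56, adjusted p = 0.0827), and 19 of 20 alternatives kept it with adjusted p from 2.09e-05 to 0.0827. DN1 (1.05 ± 0.55, adjusted p = 0.175) and DN2a (-0.20 ± 0.57, adjusted p = 0.799) did not pass against IgG. The 10 dendritic cell marker genes summed to 69.7 to 2033 CPM in IgG, 2.84 to 24.5 in DN1, 11.6 to 21.9 in DN2a and 10.7 to 21.5 in DN2b, so their sums overlapped between the DN stages that *Itgax* set apart.

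Because αL, αM and αX share the β2 chain, their balance within a library was compared as the log2 ratio of 2 counts, a scale free of library size. *Itgal* to *Itgam* was -2.61, -1.97, -2.31 and -1.27 in the IgG libraries. For DN1 it was 2.14 and 2.98, for DN2a 7.33 and 5.66 and for DN2b 8.52 and 6.43, so every DN library lay above every IgG library. The mean was 5.51 over the 6 DN libraries and -2.04 over the 4 IgG libraries, a difference of 7.55 (two-sided exact permutation test, p = 0.00952, the smallest that 6 against 4 libraries allow; adjusted over 5 ratios 0.0119). The DN libraries of 1 date series may come from a shared LSK isolate, so 6 is an upper count of independent samples. The pairs were chosen with the members' levels known and the 3 DN stages are pooled, so this and the other ratio p-values restate the separation of the libraries and are not independent evidence of it. *Itgal* to *Itgax* gave no such separation, with means of 3.23 in DN and 2.54 in IgG (difference 0.69, exact permutation p = 0.524), although DN2b (5.86 and 4.75) lay above the other 8 libraries.

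Levels of different genes were compared after division by exon length, taken as all bases in exons of protein-coding GENCODE vM21 transcripts. The annotation used for counting is not given, and neither transcript use nor unplaced reads were taken into account. These comparisons between genes are therefore approximate. On CPM per kilobase of exon, *Itgb2* was the highest of the 26 integrin subunit genes in IgG (308.7 ± 102.6, SD, n = 4) and *Itgam* came next (163.4 ± 44.0). *Itgb2* was at 24.2, 17.1 and 19.0 in DN1, DN2a and DN2b. Of the summed per-length level of the 4 α chains that pair with β2, *Itgam* made up 80.2% ± 5.60 (SD, n = 4) in IgG and *Itgal* 15.7% ± 5.53. In DN1 (n = 2 in each DN stage) *Itgal* made up 55.7% ± 12.2, *Itgax* 28.7% ± 17.9 and *Itgam* 13.3% ± 7.93. *Itgal* then made up 79.0% ± 5.09 in DN2a and 94.5% ± 2.54 in DN2b, while *Itgax* made up 17.7% ± 3.40 and 3.73% ± 1.84. The majority α chain by transcript was therefore αM in all 4 IgG libraries and αL in 5 of 6 DN libraries, with DN1 replicate 2 at 47.1% *Itgal* and 41.3% *Itgax*. The summed α level was 0.683 ± 0.1246 of the *Itgb2* level in IgG and 2.55 ± 1.11, 2.74 ± 1.22 and 2.18 ± 1.48 times that level in DN1, DN2a and DN2b.

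**Figure D2:**
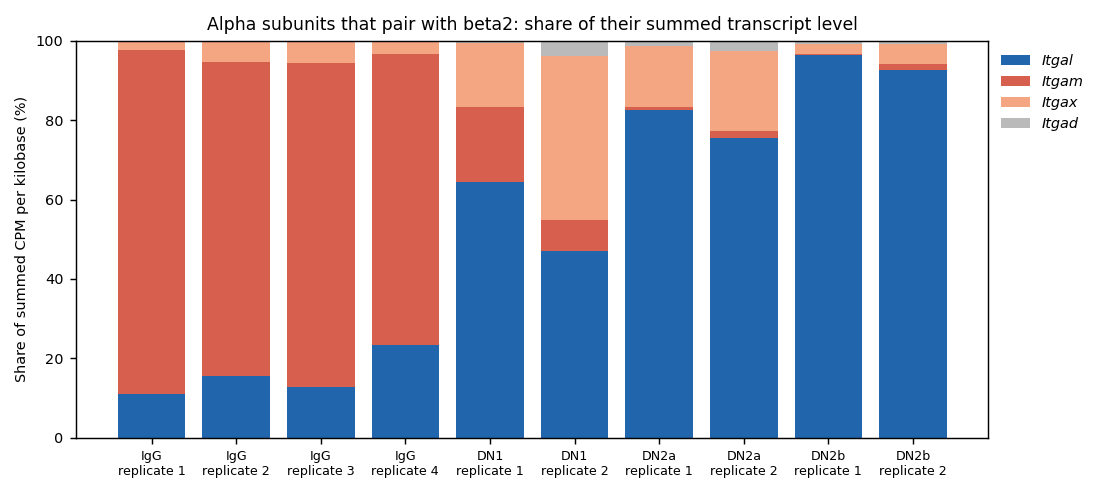
Share (%) of each of the 4 α chains that pair with β2 in their summed level (CPM per kilobase of exon), by library. *Itgam* takes 73.3% to 86.7% in the IgG libraries, and *Itgal* takes 92.7% and 96.3% in the DN2b libraries.

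*Itgae*, the αE chain known as CD103, was the member with the largest increase over IgG. It was at 0.728, 0.415, 0.235 and 0.183 CPM in IgG (13, 9, 8 and 6 counts), 17.2 and 17.2 CPM in DN1, 22.8 and 26.6 CPM in DN2a, and 50.6 and 125.0 CPM in DN2b. The 4 groups did not overlap, in the ascending order IgG, DN1, DN2a and DN2b. No IgG library reached 1 CPM, so *Itgae* was tested only through DN libraries. A higher level in DN was thus a condition of its test. The increase over IgG was 46.4-fold in DN1 (5.54 ± 0.51, adjusted p = 0.000231), 66.4-fold in DN2a (6.05 ± 0.52, adjusted p = 9.5e-05) and 237-fold in DN2b (7.89 ± 0.54, adjusted p = 2.32e-05), with each call kept in all 20 alternatives. The DN2b value was 7.08 without DN2b replicate 2, the higher library. Within the DN stages the log2FC was 0.52 ± 0.53 in DN2a versus DN1 (adjusted p = 0.769) and 2.35 ± 0.55 in DN2b versus DN1 (adjusted p = 0.0783), which did not pass. Of 22 alternatives 3 called the latter, DESeq2 (adjusted p = 0.00185), the fit with R1 and R2 as the only IgG libraries and the fit without IgG replicate 1, and their adjusted p ran up to 0.402. The sum of 12 natural killer and innate lymphoid marker genes ran in the same order as *Itgae*, from 160 to 427 CPM in IgG and 427 to 605 in DN1 to 1120 to 3459 in DN2a and 2842 to 4407 in DN2b, as did that of the T-lineage list. *Gzma*, the gene of granzyme A, carried most of the rise of the former, with means of 0.242 CPM in IgG, 267 in DN1, 2057 in DN2a and 3346 in DN2b, while *Id2*, a regulator of innate lymphoid cells, was highest in IgG (223 CPM, against 41.3, 19.7 and 44.1). The part of any such cells in the *Itgae* level was not tested.

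*Itgb7*, the only partner of αE, was already present in IgG and highest in DN1. It was at 96.8, 109.6, 56.7 and 89.4 CPM in IgG, 235.0 and 240.1 CPM in DN1, 174.1 and 200.5 CPM in DN2a, and 128.8 and 158.8 CPM in DN2b. No 2 groups overlapped, in the order DN1, DN2a, DN2b and IgG, so *Itgb7* and *Itgae* ran in opposite orders over the DN stages. Neither gene was called between DN stages, where the libraries did not overlap for 30.5% to 43.4% of all genes. The summed mast cell and basophil list had the same order of group medians as *Itgb7* (1505, 485, 362 and 173 CPM), but *Cpa3*, a mast cell protease gene, made up nearly all of it in DN2a and DN2b (means of 471 and 355 CPM, 660 in DN1 and 36.2 in IgG). Other genes of the list were lower in DN2a and DN2b than in IgG, such as *Ms4a2*, a chain of the IgE receptor, with means of 0.777 and 0.119 against 5.17 CPM, and *Mitf* with 0.477 and 0.452 against 25.7 CPM. The part of such cells in the *Itgb7* level was not tested. *Itgb7* was 2.70-fold higher in DN1 than in IgG (1.43 ± 0.25, adjusted p = 0.00382) and 2.13-fold higher in DN2a (1.09 ± 0.26, adjusted p = 0.00815). The DN1 call was kept in 19 of 20 alternatives and lost in a test beyond a 2-fold change (glmTreat, adjusted p = 0.110). The DN2a call was lost without DN2a replicate 2 (0.98, adjusted p = 0.0655), 18 of 20 alternatives kept it, and their adjusted p ran from 0.00177 to 0.406. In DN2b the log2FC was 0.71 ± 0.26 (adjusted p = 0.0519), and 5 of 20 alternatives called it. Per length, *Itgb7* had the highest group mean of the 26 subunit genes in all 3 DN stages (86.3 ± 1.30, 68.0 ± 6.78 and 52.2 ± 7.70 CPM per kilobase, SD, n = 2) and the sixth in IgG (32.0 ± 8.20, n = 4). Single libraries overlapped. *Itga2b* reached 96.4 in DN1, against 85.4 to 87.2 for *Itgb7*, and *Itgb1* reached 55.6 in DN2b, against 46.8 to 57.7. *Itgae* reached 0.00313 ± 0.00164 of the *Itgb7* level in IgG, 0.0519 ± 0.000776 in DN1, 0.0942 ± 0.000918 in DN2a and 0.422 ± 0.200 in DN2b.

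*Itga4*, the α4 chain that can take β1 or β7, had libraries at like levels in all groups. It was at 114.2, 143.4, 154.1 and 218.3 CPM in IgG, 206.7 and 105.9 CPM in DN1, 176.8 and 125.9 CPM in DN2a, and 172.0 and 123.2 CPM in DN2b. All groups overlapped, and the log2FC against IgG was -0.01 ± 0.34, -0.06 ± 0.35 and -0.09 ± 0.35 in DN1, DN2a and DN2b (adjusted p = 0.984, 0.905 and 0.841).

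The β chains available to α4 did differ. *Itgb1*, the β1 chain, was between 283 and 614 CPM in IgG and between 135 and 250 CPM in the DN libraries, lower in DN2a (-1.40 ± 0.36, adjusted p = 0.0115) and in DN2b (-1.33 ± 0.35, adjusted p = 0.0155), with DN1 at -0.99 ± 0.35 (adjusted p = 0.0564). The DN2a call was lost without either DN2a library and the DN2b call without DN2b replicate 1. Both were also lost in a test beyond a 2-fold change (glmTreat, adjusted p = 0.157 and 0.213). Per length the *Itgb1* level was 3.87 ± 1.95 times the *Itgb7* level in IgG and 0.661 ± 0.107, 0.634 ± 0.0510 and 0.853 ± 0.156 times it in DN1, DN2a and DN2b. The log2 ratio of *Itgb7* to *Itgb1* counts had a mean of 0.00 in the DN libraries and -2.30 in IgG, with all DN libraries above all IgG libraries (difference 2.31, exact permutation p = 0.00952, adjusted 0.0119). The same held for *Itgae* to *Itga4*, with means of -2.19 and -8.74 (difference 6.55, exact permutation p = 0.00952, adjusted 0.0119). It also held for *Itgb7* to *Itgb2*, with means of 1.72 and -3.35 (difference 5.06, exact permutation p = 0.00952, adjusted 0.0119). β7 and β2 share none of the α chains named here, so this last ratio is not one of chains with a common partner.

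**Figure D3:**
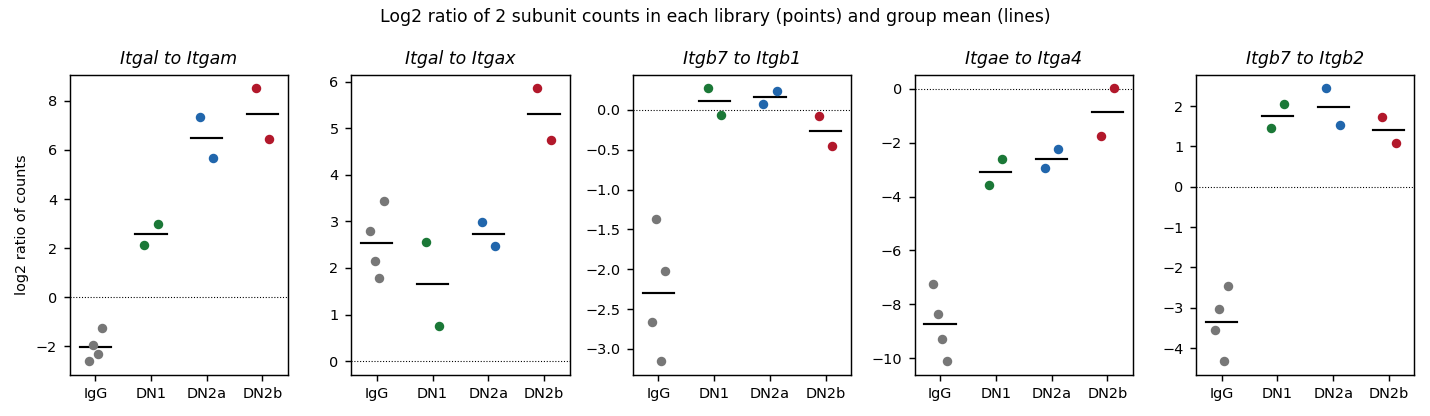
The log2 ratio of 2 subunit counts in each library for 5 pairs of subunits, with points for libraries, lines for group means and a dotted line at equal counts. In 4 of the pairs all 6 DN libraries lie above all 4 IgG libraries, and for *Itgal* to *Itgax* they overlap.

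*Itga2b*, the αIIb chain known as CD41, was high in DN1 and DN2a and low in DN2b and IgG. It was at 6.83, 32.7, 2.29 and 8.84 CPM in IgG, 331.3 and 120.9 CPM in DN1, 116.5 and 139.4 CPM in DN2a, and 17.2 and 25.0 CPM in DN2b. Every DN1 and DN2a library lay above every DN2b and IgG library, and DN2b overlapped IgG. *Itga2b* was 17.9-fold higher in DN1 than in IgG (4.16 ± 0.82, adjusted p = 0.00605) and 10.1-fold higher in DN2a (3.34 ± 0.81, adjusted p = 0.00919), and DN2b did not pass (0.74 ± 0.82, adjusted p = 0.485). The DN1 value was 3.26 without DN1 replicate 1 and 5.24 without IgG replicate 2, and the DN2a value was 4.42 without IgG replicate 2. Without IgG replicate 2, DN2b also passed, at 1.83 (adjusted p = 0.0302, where the 20 alternatives ranged from that value to 0.956 and 1 of them called it).

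DN1 replicate 1, the library with the most *Itga2b*, also held more of the megakaryocyte list, with *Pf4* at 45.5 against 1.64 CPM in DN1 replicate 2 and *Gp5* at 21.5 against 0.299 CPM. Over the groups the 12 genes of the list summed to 385 to 1253 CPM in IgG, 158 to 349 in DN1, 153 to 266 in DN2a and 121 to 147 in DN2b. Most of the sum in DN2a was *Nfe2*, a transcription factor of megakaryocytes and other blood cells, at 151 and 263 CPM, with *Pf4* at 0.573 and 0.445 CPM. *Gp1ba* was at 42.9 and 4.38 CPM in DN1, 0.537 and 0.742 CPM in DN2a and 0.822 to 6.18 CPM in IgG. The sum of the mast cell and basophil list, carried by *Cpa3* in DN2a and DN2b, ran from 598 to 2411 CPM in DN1, 386 to 583 in DN2a and 261 to 463 in DN2b to 114 to 303 in IgG. The part of either kind of cell in the *Itga2b* level was not tested. In DN1 versus IgG, the 5 called members each passed without DN1 replicate 1 too.

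*Itgb3*, the β3 partner of αIIb and αV, differed less. It was at 37.2, 61.0, 36.7 and 19.8 CPM in IgG, 63.7 and 94.5 CPM in DN1, 51.1 and 92.2 CPM in DN2a, and 73.0 and 160.8 CPM in DN2b. DN1 and DN2b lay above IgG, DN2a overlapped it, and the DN stages overlapped each other. DN2b passed (3.02-fold, 1.60 ± 0.45, adjusted p = 0.0194), but not without DN2b replicate 2 (0.92, adjusted p = 0.213), and 17 of 20 alternatives kept the call, with adjusted p from 0.00578 to 0.213. DN2b replicate 2 also held more of several matrix genes than DN2b replicate 1, such as *Col4a1* at 123 against 0.934 CPM and *Fn1* at 41.8 against 1.07 CPM, and the part of this in the *Itgb3* level was not tested. DN1 (1.03 ± 0.45, adjusted p = 0.111) and DN2a (0.89 ± 0.46, adjusted p = 0.137) did not pass. *Itga2b* reached 5.45 ± 4.67 times the per-length *Itgb3* level in DN1 and 3.19 ± 0.915 times in DN2a, against 0.329 ± 0.0954 in DN2b and 0.517 ± 0.373 in IgG.

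*Itga6*, the α6 chain of laminin receptors, did not pass in any comparison of the edgeR fit. It was at 574.3, 69.2, 137.4 and 73.6 CPM in IgG, 94.4 and 24.8 CPM in DN1, 67.9 and 29.7 CPM in DN2a, and 99.9 and 71.2 CPM in DN2b. DN2a lay below every IgG library (-2.13 ± 0.98, adjusted p = 0.104), a difference that DESeq2 alone of 20 alternatives called (-2.19, adjusted p = 0.0189). DN1 (-1.84 ± 0.97, adjusted p = 0.174) and DN2b (-1.32 ± 0.94, adjusted p = 0.277) overlapped IgG, and IgG replicate 1 alone raised the IgG mean to 214 CPM. Replicate 1, of the earlier date, was above replicate 2 in each DN stage, and *Itga4* had the same order.

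**Figure D4:**
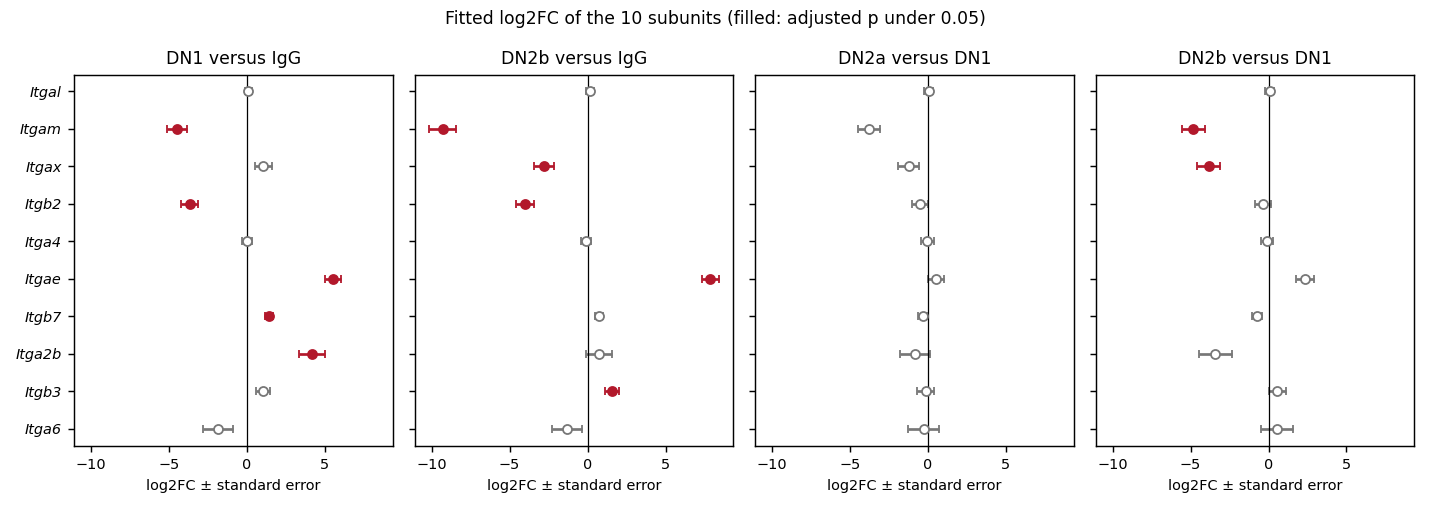
log2FC (horizontal axis, bars of 1 standard error) of the 10 subunits in 4 of the 6 comparisons, DN1 and DN2b versus IgG and DN2a and DN2b versus DN1, with filled points for adjusted p under 0.05. *Itgae* lies highest against IgG (5.54 in DN1 and 7.89 in DN2b) and *Itgam* lowest (-4.47 and -9.30), and the filled points in DN2b versus DN1 are *Itgam* and *Itgax*.

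Between the DN stages fewer genes passed, and 2 members did. In DN2b versus DN1, *Itgam* was 28.4-fold lower (-4.83 ± 0.73, adjusted p = 0.0153) and *Itgax* 14.3-fold lower (-3.84 ± 0.74, adjusted p = 0.0367), 2 of 10 members where 1.91% of all genes were called (0.892% as lower). Of the other β2-pairing α chains, *Itgal* did not pass (0.07 ± 0.28, adjusted p = 0.941). *Itgad* did not pass either, with means of 6.43 CPM in DN1 and 1.42 CPM in DN2b. Within DN1, *Itgam* was higher in replicate 1 and *Itgax* in replicate 2. The myeloid sum (2647 against 124 CPM) and the dendritic cell sum (24.5 against 2.84 CPM) were higher in replicate 1. The part of myeloid or dendritic cells in either fall was not tested. The *Itgam* call was lost with the date of the DN libraries as a replicate block (-5.05, adjusted p = 0.064), without DN1 replicate 1 (-4.28, adjusted p = 0.0625), without DN2b replicate 1 (-4.24, adjusted p = 0.118) and without DN2b replicate 2 (-5.75, adjusted p = 0.0585). In all, 17 of 22 alternatives kept it, with adjusted p from 8.95e-11 to 0.118. For *Itgax* 13 of 22 did, with adjusted p from 3.79e-06 to 0.276, and the value was -2.74 (adjusted p = 0.0722) without DN1 replicate 2, the library with the most *Itgax*. The call was also lost without either DN2a library (adjusted p = 0.0673 and 0.0622) or either DN2b library (adjusted p = 0.276 and 0.171).

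*Itgae* (2.35 ± 0.55, adjusted p = 0.0783), *Itga2b* (-3.42 ± 1.05, adjusted p = 0.164) and *Itgb7* (-0.72 ± 0.31, adjusted p = 0.336) did not pass in DN2b versus DN1, though 3 of 22 alternatives each called *Itgae* and *Itga2b*, DESeq2 among them. Their DN1 and DN2b libraries did not overlap, and 5 of 10 members were so, against 42.7% of all genes. The median log2FC of the members was -0.21, beside -0.02 over all genes. Without TMM scaling the median of all genes moved down by 0.19 in this comparison and by 0.20 in DN2a versus DN1.

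No member passed in DN2a versus DN1, where 0.401% of all genes did (24 higher and 25 lower), and 1 member, *Itgam*, had an unadjusted p under 0.05, as did 1328 genes. *Itgam* was at -3.79 ± 0.68 (adjusted p = 0.0584), and DESeq2, which called 474 genes in this comparison, called it as its 1 member (adjusted p = 5.55e-07), among 4 of 22 alternatives that did, with adjusted p of up to 0.454. The libraries did not overlap for 3 members (*Itgam*, *Itgae* and *Itgb7*), against 43.4% of all genes, and the members' median was -0.32, beside -0.03. In DN2b versus DN2a edgeR called none of the 12221 genes (0%), DESeq2 called 29 genes and no member, and 335 genes and 3 members had an unadjusted p under 0.05 in edgeR. These were *Itga2b* (-2.60 ± 1.01), *Itgax* (-2.60 ± 0.71) and *Itgae* (1.83 ± 0.54), each with groups that did not overlap, as for 5 members in all and 30.5% of all genes. The members' median was -0.0014 in this comparison, beside -0.0040 over all genes.

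Of the other 16 integrin subunit genes, 11 were tested. In DN1, DN2a and DN2b versus IgG, 4 were higher each time and 3, 4 and 4 were lower, where 31.4%, 45.5% and 42.5% of all genes were called, and none passed between DN stages. Subunits that did not reach 1 CPM in 2 libraries were not tested, and some of those tested reached 1 CPM in DN libraries alone, so the counts of higher calls rest in part on that filter. *Itga5*, the α5 chain, was between 71.5 and 160 CPM in IgG and between 10.3 and 32.4 CPM in DN (-1.93 ± 0.48, -3.09 ± 0.52 and -2.45 ± 0.50 in DN1, DN2a and DN2b), and only the DN1 call was lost when a library was left out (either DN1 library). The DN2b value of *Itga5* ran from -3.50 to -1.85 with 1 library left out. *Itgb5*, the β5 partner of αV, was between 91.1 and 361 CPM in IgG and between 0.133 and 14.2 CPM in DN (-4.62 ± 1.15, -7.09 ± 1.34 and -6.53 ± 1.30), with the DN1 call lost without DN1 replicate 1. With 1 library left out, its DN1 value ran from -6.07 to -3.90 and its DN2b value from -10.57 to -5.54. *Itgav*, the αV chain, was at 24.5 to 127 CPM in IgG and 12.4 to 24.1 CPM in DN (-1.90 ± 0.62, -2.26 ± 0.63 and -1.72 ± 0.61), with adjusted p of 0.0431, 0.0175 and 0.0473, and 9, 17 and 8 of 20 alternatives kept the 3 calls.

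The subunits that rose were mostly at low levels. *Itga9*, the α9 chain that pairs with β1, was higher in DN1 only by the test (3.96 ± 0.84, adjusted p = 0.0082), with 51.7 and 36.3 CPM there, 7.24 to 12.2 CPM in DN2a and DN2b and 0.692 to 8.29 CPM in IgG. The value ran from 3.63 to 5.36 with 1 library left out. The call was lost with D1 and D2 as the only IgG libraries (adjusted p = 0.0542). *Itgad*, the fourth β2-pairing α chain, was at 1.59 and 11.3 CPM in DN1 (3.06 ± 0.80, adjusted p = 0.0196), 2.40 and 4.97 CPM in DN2a (2.25 ± 0.80, adjusted p = 0.045) and 0.224 to 1.06 CPM in IgG. *Itgb4*, the β4 partner of α6, passed in DN2a (2.97 ± 0.90) and DN2b (2.58 ± 0.92), with 0.371 to 3.36 CPM in DN. *Itga2*, *Itga3*, *Itgad*, *Itgb4* and *Itgb6* were tested only because DN libraries reached 1 CPM. A higher level in DN was thus a condition of their test. *Itga2* and *Itgb6* were at the floor in IgG and passed in all 3 stages, at least 5.55-fold, 5.39-fold and 14.4-fold higher for *Itga2* and at least 20.3-fold, 4.93-fold and 4.27-fold higher for *Itgb6* in DN1, DN2a and DN2b (bounds against 3 counts per library). *Itga3* passed in DN2b alone by the test (at least 20.5-fold higher), from 4.86 CPM in replicate 2 against 0.133 CPM in replicate 1. Calls of these low transcripts often ended when 1 library was left out. The *Itgad* call in DN2a was kept in 8 of 20 alternatives and lost without either DN2a library, either DN2b library or any IgG library, and that in DN1 was lost without DN1 replicate 2. The *Itgb4* calls were kept in 12 of 19 alternatives in DN2a and 11 of 20 in DN2b, lost without DN2a replicate 1 and without either DN2b library, and both were lost without IgG replicate 1, 3 or 4. The *Itga2* calls were lost in DN2a without either DN2a library or IgG replicate 4 and in DN1 without DN1 replicate 1 or IgG replicate 1, 3 or 4. The *Itgb6* calls were lost in DN2a without DN2a replicate 1 and in DN2b without DN2b replicate 2, and the *Itga3* call in DN2b without IgG replicate 1, 3 or 4. Without DN2b replicate 2 or DN1 replicate 2 *Itga3* did not reach the filter and was not tested, and likewise *Itgb6* without either DN1 library. Without any filter the calls of *Itga2*, *Itga3* and *Itgb6* against IgG were kept, as were those of *Itgb4* in DN2a and *Itgad* in DN1. The calls of *Itgb4* in DN2b and *Itgad* in DN2a were lost without it. Over the alternatives the adjusted p of the DN2a calls reached 0.253 for *Itgad*, 0.694 for *Itgb4*, 0.134 for *Itga2* and 0.0926 for *Itgb6*.

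Among 27 genes of integrin activation and linkage to the cytoskeleton, 26 were tested. Against IgG, 2, 2 and 4 were higher in DN1, DN2a and DN2b and 9, 12 and 12 were lower, where 31.4%, 45.5% and 42.5% of all genes were called in either direction. The medians of the list were -0.59, -0.74 and -0.79, beside 0.01, -0.05 and -0.05 over all genes. *Skap2*, an adaptor of integrin activation in myeloid cells, was at 172 to 288 CPM in IgG, 93.7 and 99.3 CPM in DN1, 28.8 and 41.1 CPM in DN2a and 23.9 and 23.2 CPM in DN2b, and it was lower than IgG in each (-1.19 ± 0.28, -2.65 ± 0.30 and -3.22 ± 0.31), though in DN1 not when either DN1 library was left out. Its T-cell relative *Skap1* was at the floor in IgG and at 0.371 and 0.399 CPM in DN1, 1.86 and 2.52 CPM in DN2a and 9.74 and 18.1 CPM in DN2b, at least 3.17-fold higher than IgG in DN1 and at least 114-fold higher in DN2b. *Skap1*, like *Fermt2* below, was tested only because DN libraries reached 1 CPM. A higher level in DN was a condition of their tests, and the counts of higher calls rest in part on it. *Skap1* was higher (5.16 ± 0.65, adjusted p = 0.00688) and *Skap2* lower (-2.03 ± 0.32, adjusted p = 0.0173) in DN2b than in DN1, and these were the 2 genes of the list that passed between DN stages. Without DN1 replicate 1 neither passed there, and the *Skap2* call was also lost without either DN2b library and in a test beyond a 2-fold change (glmTreat), so that 21 of 22 alternatives kept *Skap1* and 18 of 22 *Skap2* (adjusted p of up to 0.0601 and 0.129). *Zyx*, the focal adhesion protein zyxin, was lower in DN2b than in IgG (31.7 against 317 CPM on average, -3.32 ± 0.47, adjusted p = 0.000882). *Fermt2* (kindlin-2) passed in DN1 and DN2b, but with 15.5 and 5.78 CPM in DN1 and 0.200 and 11.5 CPM in DN2b, and the DN2b call was lost without replicate 2.

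Of 22 integrin ligand genes, 14 were tested, and 2, 3 and 5 were higher and 4, 7 and 5 lower in DN1, DN2a and DN2b than in IgG, where 31.4%, 45.5% and 42.5% of all genes were called. *Spp1* (osteopontin) was between 2597 and 14927 CPM in IgG and at most 2.63 CPM in any DN library, and it was lower in all 3 stages (-14.21 ± 1.61 in DN2b). Its DN2b value ran from -20.50 to -13.14 with 1 library left out. *Vcam1*, the α4β1 ligand, was between 2.91 and 70.4 CPM in IgG and at the floor in all DN stages, at least 190-fold, 150-fold and 113-fold lower, calls lost without either library of DN1 or of DN2b or without DN2a replicate 1. *Lama4* and *Col4a1*, laminin and collagen chains, passed in DN2b, but from 1 library each time (*Lama4* at 22.5 against 0.0667 CPM and *Col4a1* at 123 against 0.934 CPM), and neither passed without DN2b replicate 2. *Lama4* was at the floor in IgG, so a higher level in DN was a condition of its test. *Cdh1*, E-cadherin, the ligand of αEβ7, was outside the naming rule and is named after its values were seen. It was at 1.70 to 4.15 CPM in IgG, 20.6 and 41.5 CPM in DN1, 43.9 and 33.8 CPM in DN2a, and 122 and 187 CPM in DN2b. It was higher than IgG in each stage (3.24 ± 0.39, 3.56 ± 0.39 and 5.56 ± 0.41) and, by 2.32 ± 0.47, in DN2b versus DN1 (adjusted p = 0.045, a call that 7 of 22 alternatives kept, with adjusted p from 0.0002 to 0.284, lost among others with the replicate block at 2.34 and without either DN2b library), so the transcripts of αE and of its ligand were both highest in the DN2b libraries.

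Over all 10 libraries, the genes whose CPM pattern was most like that of a member by Pearson's r of the log2 values, among 10477 candidates, are given as a description. The libraries share groups, and no test was made. *Itgam* was closest to *Arrb1* (r = 0.994) and *Cd300lb* (r = 0.994), *Itgb2* to *Ccl6* (r = 0.995), *Itgae* to *Nsg2* (r = 0.986), *Itga2b* to *Gfi1b* (r = 0.981) and *Itgb7* to *Mycn* (r = 0.959). *Gfi1b* averaged 39.0 CPM in DN1, 20.5 in DN2a, 3.79 in DN2b and 2.54 in IgG, the order seen for *Itga2b*, and *Mycn* averaged 46.6, 22.6, 8.22 and 0.199 CPM, the order seen for *Itgb7*. *Itgb3* was closest to *Zbtb24* (r = 0.965), *Itga4* to *Rint1* (r = 0.946), *Itga6* to *Emc3* (r = 0.944), *Itgal* to *Nelfb* (r = 0.893) and *Itgax* to *Gfod1* (r = 0.869).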

How the data were processed

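RNA-seq libraries of DN1, DN2a and DN2b cells (2 each) and of IgG-cultured cells (4) were grouped by the differentiation named in the labels. DN replicates 1 and 2 carry an earlier and a later date, and IgG replicates 1 to 4 are labelled D1, D2, R1 and R2, letters that the sources used here do not explain. Per the study's methods the authors aligned 36 bases of 1 read end to mm10 and tallied reads on genes with htseq-count, and deposited raw counts per gene symbol with 5 summary lines. The submitters' processing notes name TopHat2 2.12, Cufflinks 2.2.1 and HTSeq 0.6.1p1. The annotation and the strand setting are not given in the sources used here, so overlapping and antisense genes are uncertain, as are near-identical copies, since reads with more than 1 place (16.4% to 30.1%) were assigned to no gene.

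The summary lines, 20.5% to 41.0% of all reads tallied, were dropped. Genes that reached 1 CPM in 2 or more libraries were fitted in 1 model of 4 groups with edgeR 4.0.16 (TMM, quasi-likelihood F test) in R 4.3.3. CPM values use TMM-scaled library sizes, and the standard error is the log2FC divided by the square root of F. Ratios of 2 counts had 0.5 added to each and were compared by a two-sided exact permutation test. Exon lengths and positions come from GENCODE vM21 (GRCm38). Depth limits a count of 3 to 0.0880 to 0.239 CPM, and counting error is only part of the spread.

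The members and lists were chosen with earlier results of these data known. Named beside the members are the other subunits called in any comparison, up to 4 genes a list with the largest log2FC among those called in DN2b versus IgG or DN1 (mean of 5 CPM or more where higher), the closest gene by r, and genes said to be named after values were seen. Replicates come from independent LSK isolates per the methods, which do not say which DN libraries share one, and p-values measure the spread between these libraries. DN libraries were paired by replicate number (date) as an alternative. DN2a and DN2b share dates in the labels. The difference between replicates 1 and 2 correlated over genes at 0.0830 for DN1 with DN2a, 0.277 for DN1 with DN2b and 0.294 for DN2a with DN2b. Other alternatives were DESeq2 1.42.0, no TMM, DESeq2 size factors in edgeR, no filter, filterByExpr, only the groups compared, D or R libraries alone, each library left out, a prior count of 2 and glmTreat beyond a 2-fold change. Scripts were tested on simulated data. Python 3.11.15 with pandas 2.3.3, scipy 1.17.1 and matplotlib 3.10.9 served for summaries and figures.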

Additional observations from a re-analysis of the deposited data

Results flagged for a closer look

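In the 4 IgG libraries, 2 members had 1 library far from the other 3 by Dixon's criterion, which chance meets in about 1 group of 20, and 13 subunits were examined. *Itgal* was at 144.5 CPM in IgG replicate 1, below 204.3 to 209.1 CPM in the other IgG libraries. *Itga6* was at 574.3 CPM in the same library, above 69.2 to 137.4 CPM in the others. Without IgG replicate 1, *Itgal* and *Itga6* still passed in no comparison. *Itgb1* was also highest in IgG replicate 1, at 614 CPM, and did not meet the criterion.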

How the results depend on the processing

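In all 20 alternatives per comparison with IgG, the calls of *Itgae*, *Itgam* and *Itgb2* were kept in all 3 stages, as were those of *Itga2b* in DN1 and DN2a. Of the 1260 member values recomputed, 1181 kept direction and side of the threshold, 21 lost it, 19 gained it and 39 turned sign, none of the last among called values. The number of members called in the 3 comparisons with IgG stayed within 1.5 times the main count in every alternative. In DN2a versus DN1 it was 1 with DESeq2, without TMM or without a filter, instead of 0, and ran from 0 to 1 with a library left out. In DN2b versus DN1 it was 4 with DESeq2, 0 with only those 2 groups fitted, and 1 with the D1 and D2 libraries as the only IgG libraries, with glmTreat or with the replicate block, instead of 2, and ran from 0 to 3 with a library left out. The same DN libraries without the block gave 3, over all genes the block gave 233 calls against 187, and the cause was not tested. Between these fits the block ended the calls of *Itgam* (adjusted p 0.0478 without, 0.064 with) and *Itga2b* (0.0313 and 0.0658) and no other member's. With 2 of the IgG libraries the 4 ratios that differed could not pass (smallest p 0.0714), at differences of 7.80 (D1 and D2) and 7.30 (R1 and R2) for *Itgal* to *Itgam*, 2.02 and 2.59 for *Itgb7* to *Itgb1*, 5.61 and 7.50 for *Itgae* to *Itga4*, and 5.01 and 5.11 for *Itgb7* to *Itgb2*.

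The values that turned sign were near 0 or came from 1 library. *Itga4* in DN1 versus IgG was 0.24 without TMM, 0.00386 with only those 2 groups and 0.26 against D1 and D2 alone, where DN2a was at 0.18 and DN2b at 0.16. *Itgal* was -0.16 in DN2a versus DN1 and -0.13 in DN2b versus DN1 without TMM, and -0.0376 in DN1 versus IgG against R1 and R2 alone. Leaving out 1 library in turn, *Itga4* ran from -0.57 to 0.40, -0.32 to 0.17 and -0.35 to 0.13 against IgG in DN1, DN2a and DN2b, and from -0.45 to 0.51, -0.30 to 0.22 and -0.48 to 0.48 in DN2a versus DN1, DN2b versus DN2a and DN2b versus DN1. In these last 3, *Itgal* ran from -0.0147 to 0.0928, -0.30 to 0.31 and -0.26 to 0.34, and against IgG from -0.0376 to 0.14 in DN1 and -0.18 to 0.43 in DN2b. *Itgax* ran from -0.0380 to 1.66 in DN1 and -0.51 to 0.14 in DN2a against IgG. In DN2a versus DN1, *Itga2b* ran from -1.37 to 0.0814, *Itgb3* from -0.63 to 0.23 and *Itga6* from -0.99 to 0.98. In DN2b versus DN1, *Itgb3* ran from -0.12 to 1.02, *Itga6* from -0.14 to 1.79 and *Itgb2* from -0.90 to 0.0544, and in DN2b versus DN2a, *Itgam* ran from -1.97 to 0.0214 and *Itgb2* from -0.40 to 0.82. Depth limits *Itgam* in DN2a and DN2b and *Itgae* in IgG most, where levels rest on few counts.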
